A study of Mus musculus with 24 samples.

Results

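The comparison described here set fetal liver cells given miR-125b against the same cells given a control construct after 48 h of doxycycline, at day 2 of a time course. It used 6 of the 24 RNA sequencing libraries of the study, 3 per arm, chosen by their labels alone (transgene miR-125b or miR-ctrl, day 2, replicates 1 to 3). All 6 libraries came from fetal liver cells of mouse embryos at E12.5-13.5. The mice were B6J.129(Cg) animals whose Gt(ROSA)26Sor locus carries a CAG-driven transgene for Cas9 and EGFP, so that all cells make Cas9. Both arms also carried the guide sgGata1, and the labels call the cells of both arms Gata1s cells. By the labels the arms differ in the second transgene only. Whether the Gata1 edit was alike in both arms was not tested. Doxycycline was given at 1 µg/mL to both arms. The study also sampled both arms at day 10, and at day 13 with and without doxycycline. The labels do not say whether the replicates were separate cultures or animals, so the p-values measure the spread between libraries only. In a fit to all 24 libraries that spread is taken from all 8 groups, not from the 6 day 2 libraries alone.

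GATA1 is the transcription factor on which red cell and megakaryocyte formation depend, and GATA1s is the shortened form, without the amino-terminal activation domain, that is found in the myeloid leukemia of children with Down syndrome. miR-125b is a microRNA that in humans is encoded in part on the chromosome that is tripled in Down syndrome. A microRNA guides Argonaute proteins to messenger RNAs that pair with its seed, the bases next to its 5′ end, which shortens the life of the messenger and lowers its translation. The study's title names ARID3A, a DNA-binding protein of megakaryocytes, as a target of miR-125b.

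The mature miR-125b-5p is 22 bases long and is made from Mir125b-1 (RefSeq GRCm38.p6, chr9:41581940-41581961, plus strand) and from Mir125b-2 (chr16:77646279-77646300, plus strand). It is printed with its seed, bases 2 to 8, in capitals. The sites below it are seed matches in 3′ UTRs of some of the genes that were lower at day 2 and held a match. Genes without a match are not shown, and Arid3a and Zbtb7a hold further matches that are not printed. The printed sites are read 5′ to 3′ on the messenger strand from GENCODE M21 (GRCm38). Capitals mark the bases that pair with the seed and, where present, an A opposite base 1.
miR-125b-5p: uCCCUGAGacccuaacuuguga
Arid3a, chr10:79952873-79952894, plus strand: gtggcctcctgtgcCTCAGGGA
Arid3a, chr10:79953806-79953827, plus strand: ccatgggtaactggCTCAGGGA
Lin28b, chr10:45378798-45378819, minus strand: gacaaagaactttgCTCAGGGA
Map3k11, chr19:5702595-5702616, plus strand: ggaccagagcctgtCTCAGGGA
M6pr, chr6:122317286-122317307, plus strand: gtctctcctgctggCTCAGGGA
Zfp385a, chr15:103314795-103314816, minus strand: ggaacaccccagatCTCAGGGA
Zbtb7a, chr10:81149764-81149785, plus strand: gctgtccttcccagCTCAGGGA
Tmem123, chr9:7793345-7793366, plus strand: atactcaggtcaaaCTCAGGGc
Abtb1, chr6:88840245-88840266, minus strand: tacccatctcctacCTCAGGGt

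Nested letter strings, 4 in all, were searched on the messenger strand in the longest 3′ UTR that GENCODE lists for a gene. They were CTCAGGGA (the 8-base site), CTCAGGG (the 7-base seed match), TCAGGGA (a 6-base match followed by A) and TCAGGG (the 6-base match), and a gene was placed in the first of these classes that it met. Among the 11678 tested genes with an annotated 3′ UTR, 717 held the 8-base site (6.14%), 2018 held the 8-base site or the 7-base seed match (17.3%), and 38.8% held at least 1 of the 4 strings. A match is a string of letters and not a measured site.

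The 6 libraries held 14694900 to 20039006 counts and 16784 to 17700 detected genes. On the first principal component, which held 34.5% of the variance, the replicate number accounted for 90.9% of the spread and the arm for 4.34%. On the second, with 28.2% of the variance, the miR-125b replicate 3 library lay at 43.8 and the other 5 lay between -18.3 and 2.48. On the third component the arm accounted for 55.6% of the spread. The miR-125b replicate 3 library also had the lowest number of detected genes and the lowest TMM scaling factor, 0.957 against 1.02 to 1.04.

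**Figure D1:**
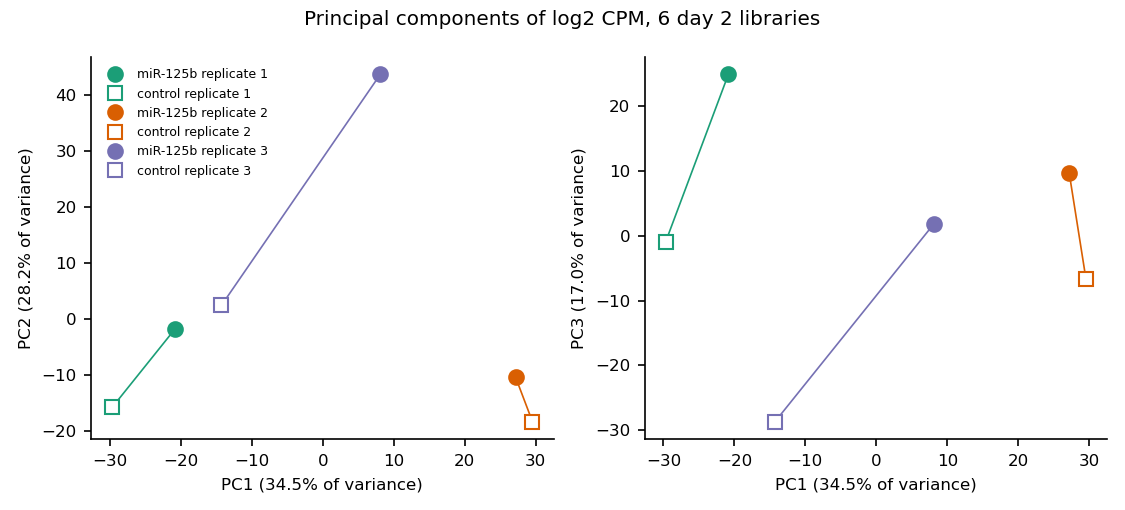
Scores of the 6 day 2 libraries on principal components 1 to 3 of log2 CPM, with a line joining the libraries of the same replicate number. Filled circles are miR-125b, open squares are control, and the miR-125b replicate 3 library stands alone at 43.8 on the second component.

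In pair 3, which holds this library, the values followed transcript length. With the tested genes divided by exon length into 4 bins of equal size, the median log2 ratio of miR-125b to control in pair 3 was 0.22 in the bin of the shortest genes, 0.10 and -0.017 in the middle bins and -0.19 in the bin of the longest. In pair 1 the same medians lay between -0.028 and 0.013, and in pair 2 between -0.013 and 0.013. Results below are therefore given per replicate pair or without this library where it carries weight, and the part of transcript length in them was not tested except where a value is given.

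Gata1 checks the edit only in part, since an edit that leaves a short protein need not lower the messenger. Its CPM (TMM-normalised counts scaled to library size) was 254, 325 and 296 in miR-125b replicates 1, 2 and 3 and 290, 378 and 279 in the controls. The arms overlapped, with a log2 fold change of -0.11 ± 0.35 (SE; adjusted p = 1.00, edgeR quasi-likelihood test), and without control replicate 2 the sign turned to 0.033. Mir125b-1, Mir125b-2, Mir125a and the host gene Mir99ahg had 0 counts in all 6 libraries. Gene counts of this kind do not measure a mature microRNA, so the overexpression itself was not checked.

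No gene passed an adjusted p under 0.05 in edgeR's quasi-likelihood fit to all 24 libraries (0 of 13419, 0%), and the lowest adjusted p was 0.632. Without adjustment, 284 genes were higher at p under 0.05 (2.12%) and 425 were lower (3.17%). With the replicate number as a block in the same fit the count remained 0, and the lowest adjusted p was 0.111. At an unadjusted p under 0.05 it gave 1229 genes in place of 709, 591 higher and 638 lower. The counts at an unadjusted p under 0.05 given below, for lists and site classes, come from the fit without the block and so ignore the pairing. DESeq2, fitted to all 24 libraries without the block, called 5 genes of the 10545 to which it gave an adjusted p (0.0474%). They were Arid3a, Tmem123 and Map3k11, which fell, and Mgat4b and Ak1, which rose. The paired fit of the 6 libraries alone, with the replicate number as a block and 2 residual degrees of freedom, called 37 genes higher (0.298%) and 9 lower (0.0724%) of 12434. The groups did not overlap, whatever the p, for 817 genes that were higher (6.09%) and 835 that were lower (6.22%).

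Arid3a had the lowest p of all genes tested in the edgeR fit to all 24 libraries without the block. Other fits ranked another gene first. That gene was Tmem123 in DESeq2, Serpina3g in the paired edgeR fit and Zfp385a in the blocked edgeR fit of all 24 libraries. Arid3a lies at chr10:79927043-79955018 on the plus strand of GRCm38 and encodes a protein with the ARID DNA-binding domain. Its CPM was 41.3, 32.6 and 28.5 in miR-125b replicates 1 to 3 and 68.3, 52.1 and 58.6 in the controls, means of 34.1 ± 6.56 and 59.7 ± 8.15 (SD, n = 3). Every miR-125b library was below every control, and the log2 ratios within pairs were -0.72, -0.68 and -1.04. The fold change was -0.81 ± 0.16 on the log2 scale with an adjusted p of 0.632 in edgeR over all 24 libraries. DESeq2 gave an adjusted p of 0.0131, the paired edgeR fit of the 6 libraries 0.00972, and the blocked edgeR fit of all 24 libraries 0.138. Without miR-125b replicate 3 the log2 fold change was -0.69. Its longest 3′ UTR, 3082 bases, holds 6 seed matches, of which 2 are the 8-base sites printed above.

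Genes were also ranked by p in the edgeR fit to all 24 libraries without the block, among those with non-overlapping groups and the same direction in 3 of 3 pairs. The 8 lower genes with the lowest p were Arid3a, Tmem123, Map3k11, Lin28b, Blzf1, M6pr, Ston2 and 6030458C11Rik. All 8 held a seed match in the longest 3′ UTR, 5 of them the 8-base site and 3 the 7-base match, against 17.3% of all tested genes with a 3′ UTR. None of the 8 higher genes chosen the same way held either.

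Lin28b, which blocks the maturation of let-7 microRNAs and marks fetal blood stem and progenitor cells, was at 40.5, 32.1 and 28.2 CPM with miR-125b and at 51.0, 42.3 and 48.7 CPM in the controls. The lowest control exceeded the highest miR-125b library, with a log2 fold change of -0.49 ± 0.11 (adjusted p = 0.768, edgeR). It missed the threshold in DESeq2 (adjusted p = 0.0771) and in the paired edgeR fit (adjusted p = 0.0899). Map3k11, a kinase upstream of JNK, was at 53.4, 59.7 and 51.3 CPM with miR-125b against 73.1, 78.1 and 75.3 CPM. This was a log2 fold change of -0.46 ± 0.10, and DESeq2 called it (adjusted p = 0.0443).

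M6pr encodes the cation-dependent mannose 6-phosphate receptor, which carries enzymes to lysosomes. Its CPM was 265, 250 and 252 in the miR-125b libraries and 338, 316 and 327 in the controls. The 3 pairs gave nearly the same log2 ratio, -0.35, -0.34 and -0.37, and the value was -0.35 without miR-125b replicate 3. Tmem123, a membrane mucin, was at 270, 303 and 271 CPM against 341, 358 and 381 CPM, a log2 fold change of -0.36 ± 0.08 that DESeq2 called (adjusted p = 0.0131). Blzf1, a Golgi protein, was at 14.5 to 15.04 CPM with miR-125b and 19.6 to 21.1 CPM in the controls, a log2 difference of -0.46. Ston2, an endocytic adaptor, showed the widest spread of these genes, 12.7 to 21.5 CPM against 26.7 to 29.4 CPM, with miR-125b replicate 3 the lowest library.

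Of the 9 genes that fell in the paired fit of the 6 libraries, 4 held the 8-base site (Arid3a, Zfp385a, Zbtb7a and Sec14l2) and Abtb1 held the 7-base match. The other 4 were Thbs1, Hba-a1, Cited4 and Tspoap1, with neither. Zfp385a, a zinc finger protein that binds RNA, was at 292, 370 and 359 CPM with miR-125b and at 420, 530 and 478 CPM in the controls. Each pair moved by a similar amount, -0.53, -0.52 and -0.41, and the paired edgeR fit gave -0.49 ± 0.08 with an adjusted p of 0.0385, against 0.811 without the block in all 24 libraries. Zbtb7a, a repressor of fetal globin genes, was at 64.2, 79.9 and 66.6 CPM against 97.2, 101 and 96.4 CPM (paired log2 fold change -0.49 ± 0.09, edgeR adjusted p = 0.0465). Abtb1, an ankyrin repeat and BTB domain protein, was at 46.7, 47.1 and 50.4 CPM against 64.1, 74.8 and 66.9 CPM, with no overlap and the same call (-0.51 ± 0.09, edgeR adjusted p = 0.0465).

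Thbs1, the platelet adhesion protein thrombospondin, was at 55.3, 60.0 and 55.9 CPM with miR-125b and at 82.0, 98.1 and 97.0 CPM in the controls. The paired edgeR fit gave -0.69 ± 0.09 (adjusted p = 0.00972), whereas over all 24 libraries the standard error was 1.08 and the adjusted p 1.00. Hba-a1, an adult alpha globin gene with a near-identical copy whose reads may be shared, was at 10.99, 6.33 and 8.39 CPM against 14.9, 13.3 and 17.8 CPM. Both genes had non-overlapping arms.

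**Figure D2:**
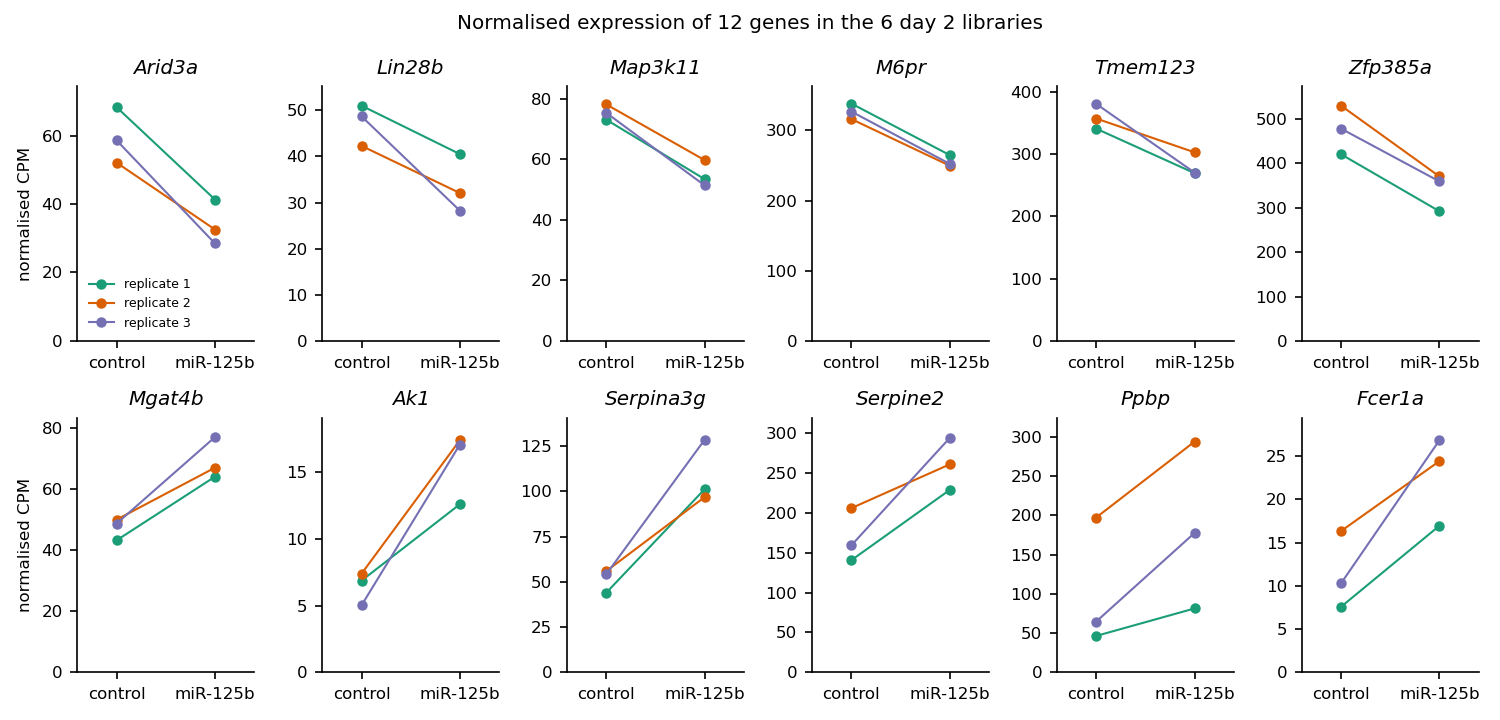
Normalised CPM of 12 genes in the 6 day 2 libraries, with a line joining the control and miR-125b libraries of 1 replicate number. The 6 genes of the upper row are lower with miR-125b in every pair and the 6 of the lower row are higher in every pair, while Ppbp overlaps between the arms, with controls at 46.5, 197 and 64.8 CPM.

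Across all tested genes, the value at day 2 was ordered by the site in the 3′ UTR. The median log2 fold change was -0.076 for the 717 genes with the 8-base site, -0.039 for 1301 with the 7-base seed match, -0.030 for 873 with the 6-base match and A, -0.00098 for 1643 with the 6-base match and 0.034 for 7144 with none. The share of genes that were lower was 65.1%, 59.3%, 56.7%, 50.3% and 41.7% in the same order, beside 49.1% of all genes tested. Groups did not overlap and were lower for 13.1% of genes with the 8-base site and 4.06% of genes with none, beside 6.22% of all genes tested. They did not overlap and were higher for 4.18%, 7.75% and 6.09% in the same order. These medians are descriptions, since genes are not replicates.

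Within each replicate pair the 8-base class lay below the class with none. The 8-base class had medians of -0.057, -0.040 and -0.11 in pairs 1, 2 and 3, and the class with none 0.018, 0.013 and 0.085. The difference of the 8-base class from the class with none was -0.075 in pair 1, -0.053 in pair 2 and -0.19 in pair 3. The 7-base class lay below the 6-base match and A in pairs 1 and 2. In pair 3 the 7-base class lay above it, with medians of -0.062 and -0.069. Without miR-125b replicate 3 the difference was -0.062 in place of -0.11.

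The number of seed matches gave a similar order. With 0, 1, 2 and at least 3 matches of 7 or 8 bases, the median log2 fold change was 0.024, -0.044, -0.074 and -0.16, over 9660, 1669, 283 and 66 genes. Among the 66 genes with at least 3 matches 77.3% were lower. Their median 3′ UTR length was 4188.5 bases, against 1146 bases for genes with no match, so the number of matches and the length moved together.

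**Figure D3:**
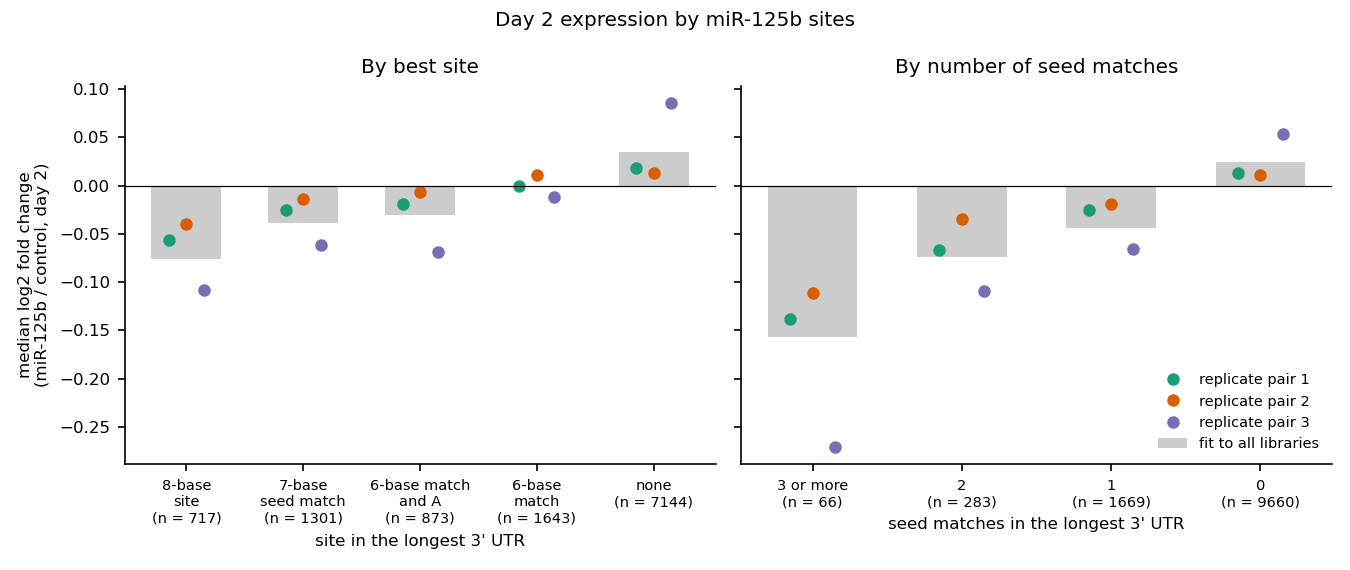
Median log2 fold change at day 2 (miR-125b over control) of genes grouped by their best site (left) and by the number of 7-base or 8-base seed matches (right) in the longest 3′ UTR. Bars are the fit to all libraries and points the 3 replicate pairs, and pair 3 lies farthest from 0 in the 8-base class (-0.11) and in the class with none (0.085).

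The values followed the length of the 3′ UTR in pair 3. For genes with none of the strings, the median log2 ratio in pair 3 went from 0.23 at 1 to 500 bases to -0.23 above 4000 bases, whereas it stayed between 0.012 and 0.036 in pair 1 and between -0.0045 and 0.031 in pair 2. Within 3′ UTRs longer than 1000 and up to 2000 bases the 8-base class had a median of -0.035, -0.022 and -0.052 in the 3 pairs and the class with none 0.018, 0.020 and 0.018. Within that length the fitted difference was -0.079 for the 8-base class, -0.038 for the 7-base class and -0.018 for the 6-base match and A, compared with -0.11, -0.073 and -0.065 over all lengths. The fitted medians kept this order of classes in shorter 3′ UTRs but not in longer ones. Above 2000 and up to 4000 bases they were -0.084, -0.038 and -0.047, with -0.013 for genes with none. Above 4000 bases they were -0.111, -0.105 and -0.107, with -0.056 for genes with none.

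**Figure D4:**
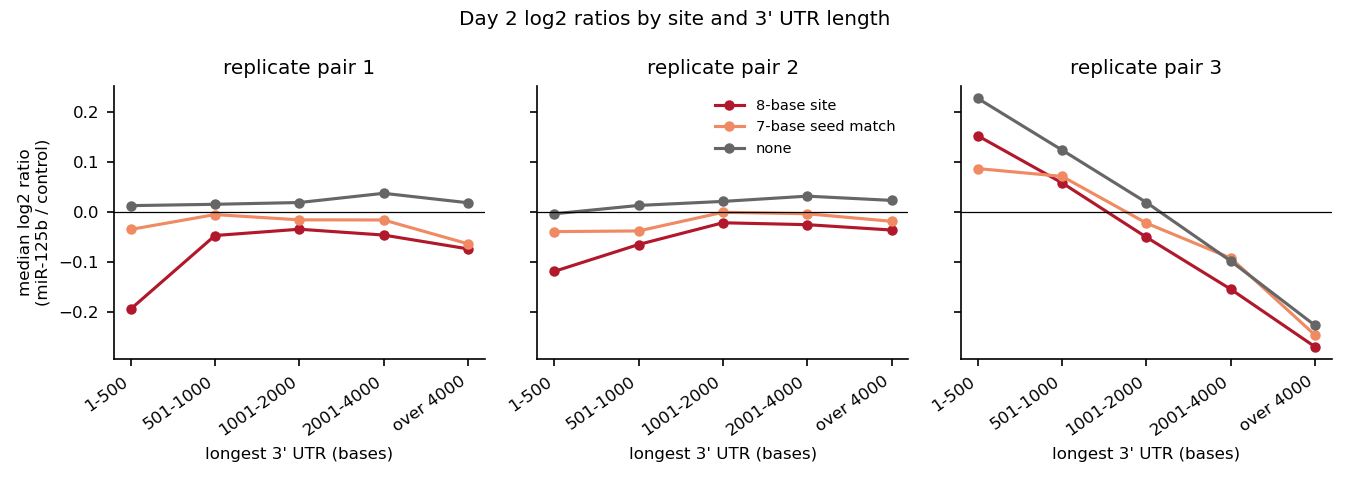
Median log2 ratio of miR-125b to control in each replicate pair, by the length of the longest 3′ UTR in bases, for genes with the 8-base site, the 7-base seed match or none of the strings searched. The 3 lines descend with length in pair 3, from 0.23 to -0.23 for genes with none, and show no such descent for genes with none in pairs 1 and 2, where the 8-base line lies below it at every length.

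Genes at an unadjusted p under 0.05 differed in their sites. Of the 356 lower genes with a 3′ UTR 35.7% held the 8-base site or the 7-base match, against 11.6% of the 268 higher genes and 17.3% of all tested genes. With the 8-base site 56 genes were lower at that p (7.81% of the class) and 10 higher (1.39%). Without miR-125b replicate 3 these counts were 27 and 7, and without control replicate 1 they were 38 and 4. All 13419 genes gave 425 lower and 284 higher with every library, 167 and 114 without miR-125b replicate 3, and 225 and 143 without control replicate 1.

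Targets of miR-125b reported in the literature were described next. Of 52 listed genes 44 were tested, 34 were lower and 10 higher, with a median log2 fold change of -0.11 beside 0.0039 for all genes. At an unadjusted p under 0.05, 10 were lower, beside 3.17% of all genes, and 1, Cdc25c, was higher. Without control replicate 3 the count of lower targets was 6, beside 298 of all 13419 genes, and without each other library 8 to 10. Arid3a is on this list, and the study itself names it. The list holds 30 tested genes with an 8-base site or 7-base match, of which 26 were lower with a median of -0.16, and 14 with neither, of which 8 were lower with a median of -0.030. The summed level was 3905 to 4139 CPM in the miR-125b libraries and 4427 to 4501 CPM in the controls, with no overlap. Pair medians were -0.11, -0.076 and -0.15, and 31 of the 44 were lower without miR-125b replicate 3.

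Several reported targets showed no separation of the arms. Trp53, the gene of p53, had a log2 fold change of -0.02, Bak1, a pore-forming death protein, -0.05, Stat3 -0.11 and Mcl1, a survival protein of the BCL2 family, -0.02, each with overlapping arms. Bbc3, a p53-induced death protein, stood at -0.08. Map2k7, a kinase that activates JNK, did not overlap, with 69.0 to 74.2 CPM against 84.8 to 91.1 CPM, as did E2f2, an S-phase transcription factor, with 46.03 to 56.2 CPM against 64.0 to 75.9 CPM. Neither passed an adjusted threshold in the paired edgeR fit (adjusted p = 0.189 and 0.0899).

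In the ARID family, of 12 tested members 10 were lower, with a median of -0.19. At an unadjusted p under 0.05, 4 of the 12 were lower, beside 3.17% of all genes. Without miR-125b replicate 3 that count was 2 (Arid3a and Arid1a), beside 167 of all 13419 genes, and the median -0.095. Arid3b, the nearest relative of Arid3a, was at 23.9, 31.3 and 24.3 CPM with miR-125b and at 32.8, 38.6 and 38.8 CPM in the controls. It holds 2 seed matches, 1 of them an 8-base site, and had a log2 fold change of -0.47 ± 0.21 (adjusted p = 0.934 in edgeR over all libraries and 0.0961 in its paired fit). Arid1a and Arid2, subunits of SWI/SNF chromatin remodelers without a seed match of 7 or 8 bases, were lowest in miR-125b replicate 3, with pair ratios of -0.49, -0.15 and -0.78 for Arid1a and -0.27, -0.09 and -0.72 for Arid2. Pair medians of the family were -0.13, -0.047 and -0.45, so pair 3 gave the largest of them.

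Genes of microRNA processing and silencing were mostly lower as well, 18 of 23 tested, with a median of -0.12. At an unadjusted p under 0.05, 4 of the 23 were lower, beside 3.17% of all genes. These were Lin28b and the 3 genes of the TNRC6 scaffold that recruits the deadenylation machinery to Argonaute, Tnrc6a, Tnrc6b and Tnrc6c. Tnrc6b was at 64.5, 56.6 and 38.8 CPM against 90.7, 65.1 and 71.4 CPM, with miR-125b replicate 3 again the lowest. The list's pair medians were -0.080, -0.022 and -0.29. Without miR-125b replicate 3 the median was -0.057 and the count 2, Lin28b and Tnrc6b, beside 167 of all 13419 genes.

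DESeq2 and the paired fit both called Mgat4b and Ak1 as higher. Mgat4b, which adds a branch to the sugar chains of glycoproteins, was at 64.0, 66.9 and 76.9 CPM with miR-125b and at 43.2, 50.0 and 48.7 CPM in the controls. All miR-125b libraries were above all controls, and the log2 fold change was 0.55 ± 0.11 (adjusted p = 0.0204 in DESeq2, 0.0385 in the paired edgeR fit and 0.632 in edgeR over all libraries). Ak1, adenylate kinase, which is also a p53 target gene, rose from 6.88, 7.40 and 5.03 CPM to 12.6, 17.4 and 17.1 CPM, a log2 fold change of 1.29 ± 0.30 (DESeq2 adjusted p = 0.0443). The other higher genes with the lowest p included Cetn2, Timm8b, Snapc2, Scoc and Gins2, whose log2 fold changes lay between 0.26 and 0.39.

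Among the 37 genes that rose in the paired fit, log2 fold changes ran from 0.55 to 1.73, and none held the 8-base site. All 37 were higher in 3 of 3 pairs, and in 25 the arms did not overlap without regard to pairs. In 33 of the 37 the largest log2 ratio was that of pair 3. When each pair was left out in turn, a fit of the remaining 4 libraries with 1 residual degree of freedom called 95, 301 and 166 genes without pairs 1, 2 and 3. The 46 genes of the full paired fit kept their direction in each, which had to be so, since all had 1 direction in 3 of 3 pairs. Of them 35, 43 and 44 were called without pairs 1, 2 and 3. These fits used libraries that had also chosen the 46, so they are no independent check.

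Serpina3g, a serine protease inhibitor of blood cells, was at 101, 96.9 and 129 CPM with miR-125b and at 44.1, 56.0 and 54.4 CPM in the controls. This was the lowest adjusted p of the paired edgeR fit (0.0033), with a log2 fold change of 1.08 ± 0.11. Other protease inhibitors among the 37 were Serpine2 and Serpinb2. Serpine2, which inhibits thrombin, was at 228, 261 and 293 CPM against 140, 206 and 159 CPM (paired log2 fold change 0.64 ± 0.10, edgeR adjusted p = 0.0297).

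Tgm2, a transglutaminase, was at 29.97, 63.7 and 49.6 CPM with miR-125b and at 14.5, 30.5 and 13.7 CPM in the controls (paired log2 fold change 1.31 ± 0.15, edgeR adjusted p = 0.00678). The replicates differed widely in both arms and every pair moved upward. Ckb, the brain-type creatine kinase, had pair ratios of 0.99, 0.76 and 0.99 and Basp1, a membrane protein first found in neurons, 1.07, 0.64 and 1.31, each with non-overlapping arms and an adjusted p of 0.00972 in the paired edgeR fit. Arhgef40 was at 22.9, 29.5 and 26.3 CPM against 12.4, 17.8 and 11.04 CPM (paired 0.95 ± 0.13, adjusted p = 0.0100, edgeR). It is 1 of the 4 risers with a 7-base seed match, beside Fam171a2, H2-Q6 and Clu. The actin-capping protein Capg, the tropomyosin Tpm4 and the tubulin Tubb6 also rose in the paired fit, with log2 fold changes of 0.67, 0.56 and 0.64.

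Platelet and megakaryocyte genes were divided at day 2. Of 33 tested, 21 were higher and 12 lower, with a median of 0.049. In bulk RNA such as this, fewer or more cells of a type and less or more RNA per cell cannot be told apart. In the paired fit Serpine2, Selp and Ppbp rose and Thbs1 fell. Selp, the P-selectin of platelet granules, was at 2.72, 3.45 and 4.17 CPM with miR-125b and at 0.813, 1.73 and 1.27 CPM in the controls. Ppbp, a platelet chemokine precursor, was at 81.5, 294 and 178 CPM against 46.5, 197 and 64.8 CPM, higher in every pair although the arms overlapped. F13a1, the clotting factor XIII subunit of platelets and macrophages, was also among the 37.

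The defining megakaryocyte genes were not separated. Itga2b, the integrin αIIb, was at 1807 to 2030 CPM with miR-125b and 1726 to 2259 CPM in the controls, a log2 fold change of 0.0022 whose sign turned with DESeq2 size factors. Pf4, platelet factor 4, stood at 0.41 ± 0.45, with pair ratios of 0.16, 0.18 and 0.83. Gp9 and Gp1bb, subunits of the von Willebrand factor receptor, were at -0.03 and -0.15. The list summed to 8323 to 11087 CPM with miR-125b and 8090 to 11108 CPM in the controls.

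**Figure D5:**
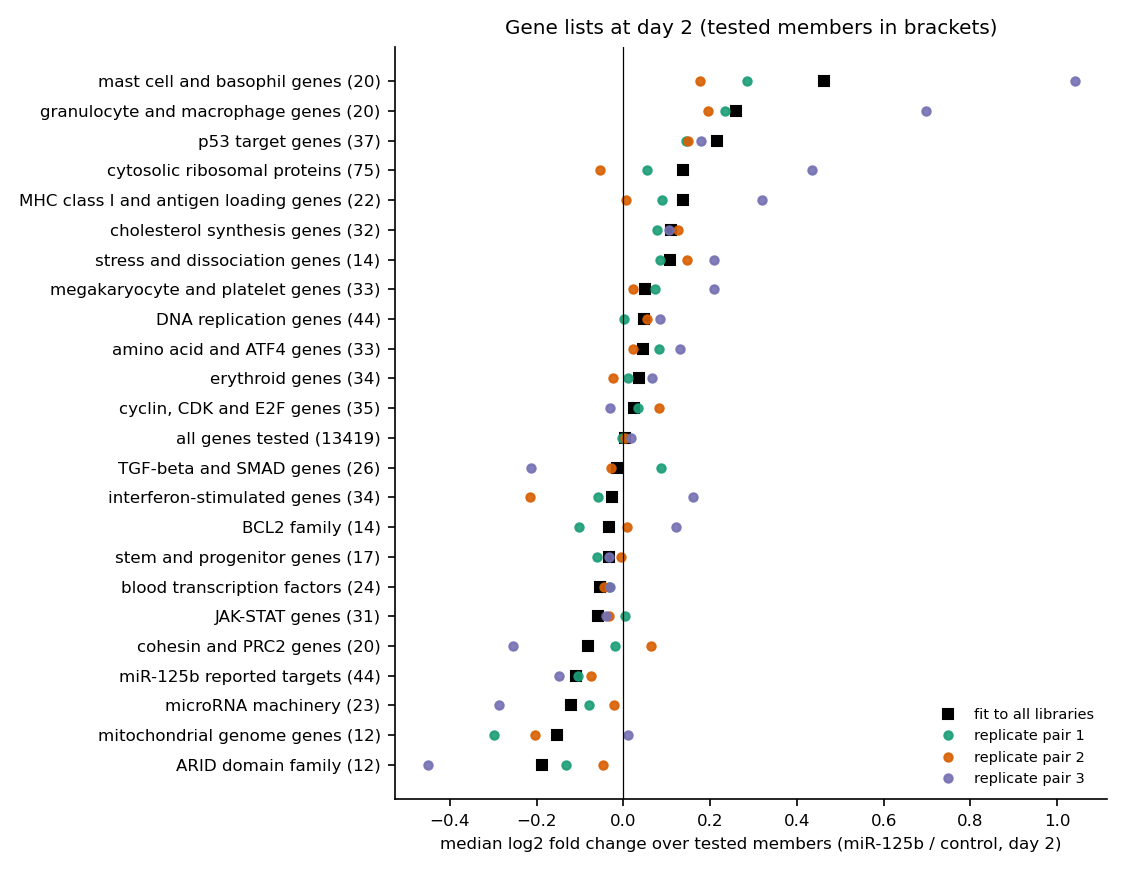
Median log2 fold change at day 2 over the tested members of each gene list with at least 10 of them, with their number in brackets. Squares are the fit to all libraries and circles the 3 replicate pairs, and pair 3 stands far to the right for mast cell and basophil genes (1.04) and ribosomal protein genes (0.43).

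Mast cell and basophil genes were higher in 16 of 20, with a median of 0.46. The pair medians were 0.29, 0.18 and 1.04, and without miR-125b replicate 3 the median was 0.17 with 13 of 20 higher. Fcer1a, the IgE-binding chain of the high-affinity IgE receptor, was at 16.95, 24.4 and 26.8 CPM with miR-125b and 7.59, 16.3 and 10.3 CPM in the controls. It rose in the paired edgeR fit (log2 fold change 1.03 ± 0.16, adjusted p = 0.0207), as did Ms4a2, the beta chain of the same receptor (0.96 ± 0.16, adjusted p = 0.0385). Cpa3, the mast cell carboxypeptidase, overlapped between the arms. The sum over the list also overlapped, 1006 to 1425 CPM against 992 to 1526 CPM.

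Granulocyte and macrophage genes were 15 higher and 5 lower among the 20 tested of 34, with a median of 0.26 and pair medians of 0.23, 0.19 and 0.70. Their groups did not overlap for 1 higher gene and for 0 lower ones, beside 6.09% and 6.22% of all genes. At an unadjusted p under 0.05, 1 was higher and 0 lower, beside 2.12% and 3.17% of all genes. Their sum was 150 to 184 CPM with miR-125b and 118 to 148 CPM in the controls, without overlap, although pair 2 stood at 150.3 against 147.9 CPM. Prtn3, a granule protease, and Cebpa, the transcription factor of granulocyte formation, rose in the paired edgeR fit, with log2 fold changes of 0.80 ± 0.15 (adjusted p = 0.0493) and 1.09 ± 0.20 (adjusted p = 0.0465). Mpo, the myeloperoxidase of granulocyte precursors, was at 7.93, 2.14 and 0.980 CPM with miR-125b and at 2.60, 1.00 and 0.391 CPM in the controls. It was higher in every pair and did not pass the paired threshold (adjusted p = 0.0587, edgeR).

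Erythroid genes were divided, with Hba-a1 the member called in the paired fit, 18 higher and 16 lower of 34, with a median of 0.036, and the median became -0.060 without miR-125b replicate 3. Stem and progenitor genes were 7 higher and 10 lower of 17, and Kit and Cd34 overlapped between the arms. At an unadjusted p under 0.05, 2 of the 17 were lower, Lin28b among them, and 0 higher, beside 3.17% and 2.12% of all genes. Without miR-125b replicate 3 the count of lower genes was 1, beside 167 of all 13419 genes. In the list of blood transcription factors, members other than Cebpa did not pass the paired threshold, with 11 higher and 13 lower of 24. Zbtb7a, which fell in the paired fit, is not on this list. Markers of hepatocytes and lymphocytes were low. Alb was at 0 in all 6 libraries and hepatocyte markers summed to 2.01 to 3.74 CPM, and Cd3e was at 0 in all 6 while lymphocyte markers summed to 20.8 to 33.6 CPM with miR-125b and 13.4 to 20.1 CPM in the controls. Of the lymphocyte list Nkg7, a granule membrane protein of natural killer and cytotoxic T cells, rose in the paired edgeR fit, from 16.3, 10.9 and 10.1 CPM to 30.96, 18.3 and 25.1 CPM (log2 fold change 0.997 ± 0.13, adjusted p = 0.0100).

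Target genes of p53 were higher in 25 of 37, with a median of 0.22 that was similar in the pairs (0.14, 0.15 and 0.18). Their sum was 1927 to 2136 CPM with miR-125b and 1760 to 1836 CPM in the controls, with no overlap. Ak1 and Phlda3, an inhibitor of AKT signalling, rose in the paired fit. Phlda3 was at 31.5, 43.8 and 47.1 CPM against 22.5, 31.3 and 24.2 CPM (paired log2 fold change 0.64 ± 0.12, edgeR adjusted p = 0.0465). Cdkn1a, the cell cycle inhibitor p21, stood at 0.28 with non-overlapping arms, and Mdm2, the ligase that removes p53, at 0.02 with overlapping ones. Members of the BCL2 family were 5 higher and 9 lower of 14.

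MHC class I and antigen loading genes were higher in 19 of 22, with a median of 0.14 and pair medians of 0.088, 0.0065 and 0.32. H2-Q7 and H2-Q6, nonclassical class I genes with similar sequences that reads may not tell apart, rose in the paired edgeR fit with log2 fold changes of 0.55 ± 0.09 and 0.55 ± 0.10 (adjusted p = 0.0385 and 0.0465). H2-Q7 was at 93.4, 93.2 and 104 CPM against 64.8, 69.3 and 63.9 CPM. Psmb8, an immunoproteasome subunit, was at 64.6, 66.7 and 88.6 CPM against 52.7, 58.2 and 51.7 CPM, without a call. Interferon-stimulated genes as a list were 15 higher and 19 lower of 34.

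Cholesterol synthesis genes were higher in 22 of 32, with a median of 0.11 and pair medians of 0.077, 0.13 and 0.11. Their groups did not overlap for 9 higher genes and for 0 lower ones, beside 6.09% and 6.22% of all genes. At an unadjusted p under 0.05, 4 were higher, Fdft1, Msmo1 and Acat2 among them, beside 2.12% of all genes. The count was 2 without miR-125b replicate 3 and without control replicate 2, where 114 and 358 of all 13419 genes were higher at that p. Fdft1, squalene synthase, was at 167, 151 and 179 CPM with miR-125b and at 131, 132 and 122 CPM in the controls. Msmo1, a methylsterol oxidase, was at 247, 217 and 250 CPM against 191, 177 and 188 CPM. Neither Fdft1 nor Msmo1 passed an adjusted threshold, whereas 1 other member of the list was called as higher in the paired edgeR fit.

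Of the cell cycle genes, the cyclin, CDK and E2F list was 20 higher and 15 lower of 35, with a median of 0.024 beside 0.0039 for all genes. Among 44 DNA replication genes 32 were higher, beside 6827 of all 13419 genes. Their median was 0.047, with pair medians of 0.0018, 0.054 and 0.085. Mki67, the proliferation marker, was at 665, 688 and 529 CPM against 759, 737 and 787 CPM, lowest in miR-125b replicate 3. Genes of TGF-beta and SMAD signalling were 13 higher and 13 lower of 26, and those of JAK-STAT signalling 14 and 17 of 31.

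Cytosolic ribosomal protein genes were higher in 70 of 75, with a median of 0.14. At an unadjusted p under 0.05, 4 of the 75 were higher, beside 2.12% of all genes, and that count depended on the libraries. It was 0 without miR-125b replicate 3 and without control replicate 1, 2 without control replicate 3, and 14, 17 and 23 without control replicate 2, miR-125b replicate 2 and miR-125b replicate 1. All 13419 genes gave 114, 143, 197, 358, 313 and 415 higher in the same order. The pair medians were 0.055, -0.054 and 0.43, and without miR-125b replicate 3 the median was 0.0095 with 44 of 75 higher. Genes of the mitochondrial genome were lower in 9 of 12, and their sum was 11470 to 12113 CPM with miR-125b and 12931 to 13519 CPM in the controls. Cohesin and PRC2 genes were lower in 16 of 20, with pair medians of -0.019, 0.063 and -0.26. Amino acid and ATF4 genes were 21 higher and 12 lower of 33, stress and dissociation genes 9 and 5 of 14, and endothelial and stromal markers 2 and 4 of 6, the last with sums of 183 to 199 CPM with miR-125b and 181 to 202 CPM in the controls.

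The day 10 libraries were other libraries than those of day 2, but not an independent set: deviations from the group means correlated between day 2 and day 10 libraries of the same arm and replicate number at 0.163 to 0.624. At day 10 edgeR called 117 genes in all 24 libraries (0.872%). The difference of the miR-125b effect between day 10 and day 2 passed the threshold for 0 of 13419 genes (0%), with 920 at an unadjusted p under 0.05, and DESeq2 also called 0. Arid3a was at -0.88 ± 0.16 at day 10 (adjusted p = 0.0230, edgeR), and the change of effect was -0.072. Lin28b (-0.58, adjusted p = 0.0262), M6pr (-0.46, adjusted p = 0.0233) and 6030458C11Rik (-0.42, adjusted p = 0.0329) also fell at day 10 in that fit. Tmem123 and Ston2 were at -0.13 and -0.10 there.

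Of the 37 genes that rose in the day 2 paired fit, 35 were higher at day 10, where 6787 of all 13419 genes were higher, and 9 rose there in the fit to all libraries, and of the 9 that fell at day 2, 8 were lower at day 10 and 1, Arid3a, fell. The risers included Ak1 (1.63, edgeR adjusted p = 0.0188), Serpina3g (1.84, adjusted p = 0.0174), Serpine2 (1.02, adjusted p = 0.0413) and Phlda3 (1.07, adjusted p = 0.0443). Fcer1a stood at -0.12 at day 10. Mpo had a day 10 log2 fold change of 5.10 beside 1.46 at day 2, and H2-Q7 2.59 beside 0.55. Their changes of effect were 3.63 and 2.04, with unadjusted p of 0.00361 and 0.0131, and neither passed the adjusted threshold. Genes with the 8-base site had a median of -0.030 at day 10 and genes with none -0.0089, compared with -0.076 and 0.034 at day 2.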

How the data were processed

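Total RNA was isolated with the Quick-RNA Miniprep kit and made into Illumina sequencing libraries, per the labels' protocols. Per the submitters' processing notes, fastp, HISAT2 2.0.5 and featureCounts were used with the genome build mm10. Their settings, the annotation and the use of strand are not given in the sources used here, so overlapping, antisense and near-identical genes may share reads. The deposited values are raw counts per gene, 1 column per library, not pooled. Of 47069 genes, 46488 had a name in GENCODE M21, and the unnamed genes took no more than 0.0638% of any library.

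Counts were analysed with edgeR 4.0.16 in R 4.3.3. One quasi-likelihood model was fitted to all 24 libraries with a term for each of the 8 groups and TMM scaling, over 13419 genes kept by filterByExpr, with two-sided tests, Benjamini-Hochberg adjustment and a threshold of 0.05. Standard errors follow from the F statistic. Exact permutation of 3 against 3 libraries cannot give a p under 0.10 and was not used. DESeq2 1.42.0, other scalings, no filter, another quasi-likelihood estimate, the compared libraries alone, the replicate block and left-out libraries were alternatives. The model was tested on simulated counts.

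The labels do not say what a replicate number shares. Deviations from group means correlated between same-numbered libraries at 0.163 to 0.781 in all 84 pairs of libraries, and at 0.258 to 0.482 in the 3 day 2 pairs, against -0.408 to 0.0027 for different numbers at day 2. Deviations sum to 0 over the 3 libraries of a group, so positive same-number values push the different-number values below 0. The different-number values are therefore no separate support. By the same-number values, positive in all 84 pairs, the numbers pair the libraries. Chi-square values between day 2 replicates were 10.7 to 22.9 per degree of freedom, so none was counted as a repeat.

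Named genes were Gata1, Arid3a, Arid3b and the miR-125b genes, every gene called at day 2 by any of the 3 fits named, the 8 with the lowest p and the 5 with the largest fold change in each direction (average log2 CPM of at least 2, arms not overlapping, 3 of 3 pairs alike), and up to 4 members with the lowest p and the defining members of 26 gene lists. Further members of the target and p53 lists were named after their values were seen. The members and lists were chosen with earlier results of these data known. For 1 gene that the rule picked, no values are given.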

Additional observations from a re-analysis of the deposited data

How the results depend on the processing

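The count of called genes at day 2 was 0 in edgeR over all 24 libraries, without a filter, with DESeq2 size factors, with the other quasi-likelihood estimate, with the 6 libraries alone, and in each fit without 1 day 2 library. Leaving out miR-125b replicate 3 lowered the genes at an unadjusted p under 0.05 from 709 to 296, and leaving out miR-125b replicate 1 raised them to 999. DESeq2 called 5. With the replicate block the count was 0 over 24 libraries, 0 without miR-125b replicate 3, and 46 in the 6 libraries alone, where pairs left out gave 95, 301 and 166. These last fits were chosen after seeing the data, as were the values for pair 3 alone, which were -0.19, -0.15 and -0.15 for the 8-base, 7-base and 6-base-and-A classes against none. The change of effect from day 2 to day 10 was called for 0 genes in every alternative.

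Leaving out 1 library moved the differences from genes with no site to between -0.15 and -0.062 (8-base), -0.11 and -0.034 (7-base) and -0.098 and -0.031 (6-base and A). List medians ranged over -0.15 to -0.083 for reported targets, -0.072 to -0.0025 for blood transcription factors (-0.064 with the replicate block), -0.077 to 0.34 for megakaryocyte, -0.060 to 0.17 for erythroid, 0.16 to 0.65 for granulocyte and macrophage, -0.20 to -0.016 for stem and progenitor, 0.18 to 0.21 for p53, 0.0038 to 0.086 for DNA replication, -0.096 to -0.023 for JAK-STAT, 0.061 to 0.12 for cholesterol synthesis, -0.00059 to 0.11 for amino acid and ATF4, -0.077 to 0.22 for hepatocyte, -0.078 to 0.20 for endothelial and stromal and -0.048 to 0.32 for stress genes. The cause was not tested.

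Of the named genes 9 turned sign in some alternative, none of them called at day 2 in any fit. Left-out libraries gave -0.20 to 0.033 for Gata1, -0.44 to 0.15 for Gp1bb, -0.62 to 0.75 for Col1a1, -0.68 to 1.61 for Cd34, -0.61 to 0.23 for Hbb-bs, -0.18 to 0.21 for Gp9, -0.78 to 0.35 for Pdgfrb, -0.21 to 0.16 for Kit and -0.083 to 0.12 for Itga2b. The replicate block gave -0.12 for Col1a1 and -0.00043 for Kit, and -0.0088 for Kit in the 6 libraries alone. DESeq2 gave -0.00045 and its size factors -0.00044 for Itga2b. Depth of 14694900 to 20039006 counts limits genes near 1 CPM, such as Mpo with 16 counts in miR-125b replicate 3 and 8 in control replicate 3.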
